A study of Rattus norvegicus with 9 samples.

Results

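Tubulins are the proteins from which microtubules are built, and their transcripts were examined here in dendrites severed from cultured rat neurons. The genes were taken from a list of 8 (Tuba1a, Tuba1b, Tuba4a, Tubb2a, Tubb2b, Tubb3, Tubb5 and Tubg1), and a gene was measured where a probe set of the array named it and no other gene. This held for 6 of the 8 genes, through 8 probe sets, among 14217 genes and 31042 probe sets tested. Tuba1a and Tuba1b had no probe set of their own. Both shared 1 alpha-tubulin probe set with Tuba1c, which is described below and belongs to none of the 3 genes alone.

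The material came from Sprague-Dawley rats. Hippocampal neurons were taken at embryonic day 19 and grown in dispersed culture for 14 days without treatment, and dendrites were collected with glass pipettes from several cells into pools of 100, 200 or 400. Each pool size had 3 arrays, labelled as biological replicates, which gave 9 Affymetrix rat expression arrays in all. Nothing in the labels says whether replicates came from separate cultures, so p-values measure the spread between these arrays. The cells are labelled as pyramidal neurons, axons could not be told from dendrites by their shape at collection, and the RNA was amplified in several rounds before hybridisation.

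Microtubules are polymers of dimers, each made of an alpha-tubulin and a beta-tubulin, and mammals carry several genes for either kind. Dendrites hold microtubules of both orientations, which serve as tracks for motor proteins that carry mRNA, vesicles and organelles. Gamma-tubulin is not part of the microtubule wall but nucleates new microtubules in a ring complex with partner proteins. Cells also adjust tubulin mRNA to the amount of free dimer, through a factor that recognises the nascent tubulin chain at the ribosome and recruits mRNA decay.

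Tubb2b with Tubb2a, and the brighter probe sets of Tubb3 and Tubb5, had the highest correlations over the arrays of any pairs of tubulin probe sets, so the sequences just upstream of these 4 genes are shown. Each line gives the 120 bases before the gene start in RefSeq, 5′ to 3′ on the strand of the gene, on the GRCr8 assembly. Capitals mark matches, on either strand, to 4 short motifs. These were the core of the TATA box (TATAA), the CCAAT box, the GC box (letters GGGCGG) and the core of the cAMP response element (letters TGACG). The positions are chr17:30952966-30953085 for Tubb2b, chr17:31002066-31002185 for Tubb2a, chr19:68365567-68365686 for Tubb3 and chr20:2917457-2917576 for Tubb5, all on the plus strand.
Tubb2b: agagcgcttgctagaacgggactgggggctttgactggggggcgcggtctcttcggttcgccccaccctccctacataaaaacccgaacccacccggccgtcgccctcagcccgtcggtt
Tubb2a: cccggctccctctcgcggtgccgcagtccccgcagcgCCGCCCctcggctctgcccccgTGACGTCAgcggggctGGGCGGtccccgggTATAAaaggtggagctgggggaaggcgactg
Tubb3: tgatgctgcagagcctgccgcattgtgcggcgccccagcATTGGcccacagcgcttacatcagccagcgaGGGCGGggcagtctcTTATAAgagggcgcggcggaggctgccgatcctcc
Tubb5: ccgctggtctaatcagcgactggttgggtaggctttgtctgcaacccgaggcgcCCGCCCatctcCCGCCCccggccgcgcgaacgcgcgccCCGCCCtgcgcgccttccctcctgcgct
Tubb2b and Tubb2a lie near each other on chromosome 17, with Tubb2al1 between them. No motif was found in the printed bases of Tubb2b, whereas those of Tubb2a held the TATA box core, the GC box at 2 places, and the response element core on both strands in overlapping matches. The Tubb3 sequence held the TATA box core in overlapping matches on both strands beside a CCAAT box and a GC box, and Tubb5 held the GC box at 3 places and no TATA box core. Over the full 250 bases searched before the start of all 8 listed genes, the TATA box core was present in 4, the CCAAT box in 6, the GC box in 6 and the response element core in 4. The shares among 33469 promoters of the same length were, in the same order, 24.0%, 34.0%, 30.5% and 18.2%. G and C made up 56.8% to 80.4% of the 250 bases in the 8 genes, against a median of 51.2% over all promoters. The shares were not adjusted for this. The motif counts are matches of letters and were not tested for function.

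The deposited values are log2 signals, and a percentile here is the share of probe sets (or genes) on the same array with a lower or equal signal. A signal depends on the affinity of the probes as well as on the RNA, so the percentiles order signals and not amounts of RNA. The 9 arrays correlated with each other at r = 0.678 to 0.877 over all probe sets. Among markers of the labelled cell type, Neurod2, Nrgn and Bhlhe22 lay in the top 5% of genes, while Camk2a lay at the 28.8th percentile and Tbr1 at the 2.44th, and 8 of 13 measured pyramidal neuron markers lay above the middle of all genes. Of 11 astrocyte markers 7 lay above it, with Gfap at the 84.1st percentile, against 4 of 12 microglial, 7 of 11 oligodendrocyte lineage, 2 of 8 fibroblast and 4 of 7 endothelial markers. The endothelial markers Vwf and Esam, named after their values were seen, were in the top 5% of genes as well, at the 99.8th and 98.5th percentiles. Of listed RNAs that are retained in the nucleus 3 were measured, and all lay above the middle. Meg3 was at the 97.0th percentile, Snhg11 at the 92.7th and Miat at the 76.3rd. The authors state that the samples may hold RNA of the soma, and its part in these signals was not tested. Fewer structures of a cell type and less RNA in each cannot be told apart in such pools.

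The beta-tubulin genes Tubb2b, Tubb2a and Tubb5 had the highest signal percentiles of the 6 genes. By the median of its probe sets the beta-tubulin Tubb3 lay below the alpha-tubulin Tuba4a. The brighter Tubb3 probe set alone was above Tuba4a on 6 of 9 arrays. By gene, taking the median of its probe sets, Tubb2b lay at the 99.9th percentile, Tubb2a at the 99.8th, Tubb5 at the 93.2nd, Tuba4a at the 77.4th, Tubb3 at the 66.8th and Tubg1 at the 56.9th. The median of the 6 genes was 85.3, against 49.9 for all genes, and its value on single arrays ran from 81.3 to 93.6 (SD 4.47, n = 9). Tubb2b and Tubb2a were in the top 5% of genes on 9 of 9 arrays, and Tubb5 was there on 1. The Tubb5 value lies between probe sets of unlike signal. Among probe sets, 1387892_at was in the top 5% on 9 arrays and 1370290_at on 0.

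**Figure D1:**
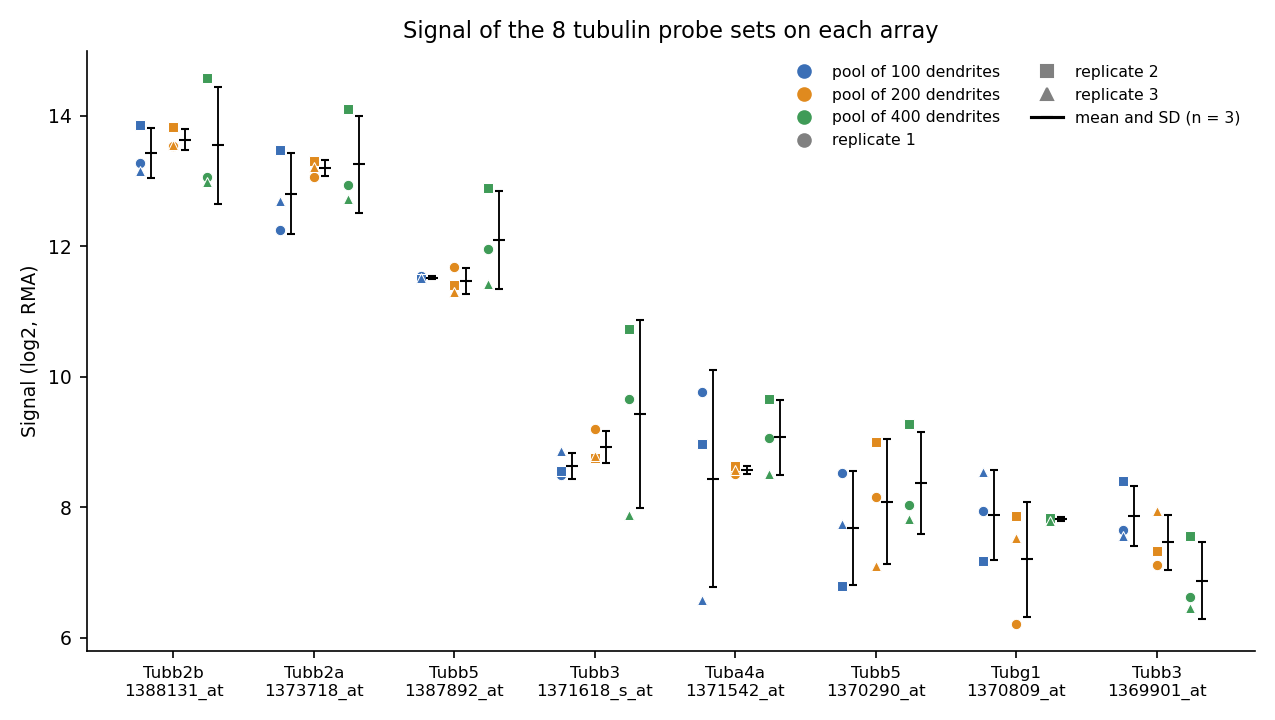
Signal (log2, RMA) of the 8 tubulin probe sets on each of the 9 arrays, with colour for the number of dendrites in the pool, symbol for the replicate, and bars for the mean and SD of 3 arrays. Tubb2b and Tubb2a sit above 12 on every array, and the square of the 400-dendrite pools (replicate 2) is the highest point of Tubb2b, Tubb2a, Tubb3 1371618_s_at and both Tubb5 probe sets.

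Tuba4a, an alpha-tubulin gene expressed in brain and muscle and the only alpha-tubulin of the 8 listed genes with a probe set of its own, gave a signal in the upper part of the array that varied widely. Probe set 1371542_at measured 9.77, 8.97 and 6.57 on the arrays of 100 dendrites, 8.51, 8.64 and 8.57 on those of 200, and 9.06, 9.66 and 8.51 on those of 400. The arrays of 200 dendrites lay close together, whereas replicate 3 of the 100-dendrite pools lay far below all others and replicate 1 lay highest, so that the groups overlapped. Its mean was 8.69 ± 0.93 (SD, n = 9), with a median percentile of 75.9 among probe sets, and its SD was above those of 86.9% of probe sets.

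Tuba1a, the main alpha-tubulin of developing neurons, and Tuba1b, its broadly expressed relative, could be seen only through probe set 1367579_a_at, which also names Tuba1c. It measured 8.96, 8.36 and 7.98 on the arrays of 100 dendrites, 8.96, 7.87 and 7.36 on those of 200, and 9.03, 8.10 and 6.95 on those of 400. The groups overlapped, and the arrays of 400 dendrites held both the highest and the lowest value. The mean was 8.17 ± 0.73 (SD, n = 9), at a median percentile of 65.2. Which of the 3 genes gave this signal cannot be told apart.

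Tubb2b, a beta-tubulin of newly formed neurons, had the highest signal of the listed genes. Probe set 1388131_at measured 13.28, 13.86 and 13.15 on the arrays of 100 dendrites, 13.53, 13.82 and 13.55 on those of 200, and 13.07, 14.58 and 12.99 on those of 400. Both the highest and the lowest of the 9 values came from the 400-dendrite pools. The mean was 13.54 ± 0.50 (SD, n = 9), and the percentile among probe sets was 99.7 on the array where it was lowest.

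Tubb2a, the neighbouring gene that encodes a closely similar beta-tubulin of the brain, came next. Probe set 1373718_at measured 12.24, 13.48 and 12.70 on the arrays of 100 dendrites, 13.06, 13.30 and 13.22 on those of 200, and 12.94, 14.10 and 12.73 on those of 400. It was below Tubb2b on 9 of 9 arrays, although the ranges of both overlapped. The mean was 13.08 ± 0.53 (SD, n = 9). For both genes the spread was near the median SD of the probe sets of highest mean signal (the upper 10%), which was 0.54, and the SD of all probe sets had a median of 0.61.

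Tubb5, a beta-tubulin of dividing cells and young neurons, was measured by probe sets that differed widely in signal. Probe set 1387892_at measured 11.54, 11.49 and 11.52 on the arrays of 100 dendrites, 11.69, 11.40 and 11.30 on those of 200, and 11.97, 12.90 and 11.41 on those of 400. All arrays lay within a narrow band apart from replicate 2 of the 400-dendrite pools, with 1 further array of that size slightly above the rest. The mean was 11.69 ± 0.49 (SD, n = 9), the SD without that replicate was 0.21, and the probe set was in the top 5% on 9 of 9 arrays.

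The other Tubb5 probe set, 1370290_at, measured 8.52, 6.79 and 7.75 on the arrays of 100 dendrites, 8.15, 9.01 and 7.09 on those of 200, and 8.03, 9.27 and 7.81 on those of 400. It spread widely within each pool size, and its groups overlapped. Its mean was 8.05 ± 0.81 (SD, n = 9), or 3.64 log2 units below the first. The median such gap over 3061 genes with a pair of probe sets was 1.195.

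Tubb3, the class III beta-tubulin that is used as a marker of neurons, lay near the middle of all probe sets by 1369901_at and higher by 1371618_s_at. The former measured 7.66, 8.40 and 7.55 on the arrays of 100 dendrites, 7.11, 7.33 and 7.94 on those of 200, and 6.62, 7.56 and 6.45 on those of 400, with a mean of 7.40 ± 0.61 (SD, n = 9). Its lowest values were both from the largest pools, but replicate 2 of that size was slightly above the lowest array of the smallest pools, so that the groups met. The latter measured 8.49, 8.55 and 8.86 on the arrays of 100 dendrites, 9.20, 8.76 and 8.79 on those of 200, and 9.66, 10.74 and 7.88 on those of 400, with a mean of 8.99 ± 0.82 (SD, n = 9). The 400-dendrite pools held both its highest and its lowest value.

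Over the 9 arrays Pearson r was 0.017 between the Tubb3 probe sets and 0.58 between those of Tubb5. Within pool sizes these were 0.49 and 0.56, and without replicate 2 of the 400-dendrite pools they were -0.10 and 0.20. Over the 3061 genes with a pair of probe sets the median r was 0.020, so that low agreement within a gene was common on these arrays. The suffix _s_at is given by the manufacturer to probe sets whose probes match several transcripts. Coding sequences of beta-tubulin genes are nearly alike, the probe sequences were not used here, and cross-hybridisation between these genes was not tested.

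Tubg1, which encodes the gamma-tubulin that nucleates microtubules, gave a signal near the middle of the array. Probe set 1370809_at measured 7.94, 7.17 and 8.55 on the arrays of 100 dendrites, 6.21, 7.87 and 7.53 on those of 200, and 7.83, 7.83 and 7.79 on those of 400. The arrays of 400 dendrites were almost equal, within the wide range of the smaller pools. The mean was 7.64 ± 0.65 (SD, n = 9) at a median percentile of 57.8 among probe sets.

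From highest to lowest mean the order of probe sets was Tubb2b, Tubb2a, Tubb5 1387892_at, Tubb3 1371618_s_at, Tuba4a, Tubb5 1370290_at, Tubg1 and Tubb3 1369901_at. The upper 3 steps of this order held on 9 of 9 arrays each, and of these neighbours only Tubb5 1387892_at and Tubb3 1371618_s_at had ranges that did not overlap. Among the lower 5 probe sets, neighbours kept their order on 6, 7, 6 and 6 of 9 arrays, so that neighbouring places changed between arrays. The ends of this part of the order did not change places. Tubb3 1371618_s_at was above Tubg1 and above Tubb3 1369901_at on every array.

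Whether tubulin signals went with the number of dendrites in the pool was then asked, since all pools came from the same kind of culture. No tubulin probe set or gene differed between pool sizes past an adjusted p of 0.05 by limma with Benjamini-Hochberg adjustment, and neither did any other of the 31042 probe sets or 14217 genes (0 called, 0% in each contrast, in the moderated F over the 3 pool sizes and in the slope per doubling of the pool). The smallest adjusted p of any probe set for 400 against 100 dendrites was 1.0 after rounding. At an unadjusted p under 0.05, limma gave 1 of the 8 tubulin probe sets for 400 against 100 dendrites, where 2.21% of all probe sets passed, and 0 of 8 for 200 against 100 (2.87% of all) and 400 against 200 (2.04% of all). The unadjusted p of the moderated F was under 0.05 for 0 of 8 and that of the slope for 1 of 8, the same probe set, against 650 and 763 of all probe sets. Under 16 alternatives, the count for 400 against 100 dendrites was 1 in 8 and 0 in the other 8, which included the variance with trend and the fits without replicate 1 or 2 of the 100-dendrite pools.

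That probe set was Tubb3 1369901_at, with means of 7.87 ± 0.46 (SD, n = 3) in the pools of 100, 7.46 ± 0.43 in those of 200 and 6.88 ± 0.60 in those of 400. The difference of 400 from 100 dendrites was -0.99 on the log2 scale (95% interval -1.97 to -0.018; limma, unadjusted p = 0.046, Benjamini-Hochberg adjusted p = 1.0). The other Tubb3 probe set differed in the opposite direction, by 0.79 (95% interval -0.53 to 2.12). By gene, Tubb3 differed by -0.10 (95% interval -1.12 to 0.92), and neither probe set nor the gene passed the test.

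For the remaining probe sets the differences of 400 from 100 dendrites were 0.63 for Tuba4a, 0.45 for Tubb2a, 0.11 for Tubb2b, 0.69 and 0.58 for Tubb5, and -0.065 for Tubg1. Every one of these 95% intervals included 0, and they reached from -0.92 to 1.15 for Tubb2b and from -0.87 to 2.14 for Tuba4a. With 3 arrays a group, every one of these intervals thus also included a difference of 1 log2 unit. In all, 6 of 8 differences were above 0 with a median of 0.51, against 49.9% and a median of 0.00 for all probe sets. Without replicate 2 of the 400-dendrite pools 5 of 8 were above 0 and the median was 0.08, against 52.3% and 0.03 for all probe sets, and Tubb2b turned to -0.40.

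**Figure D2:**
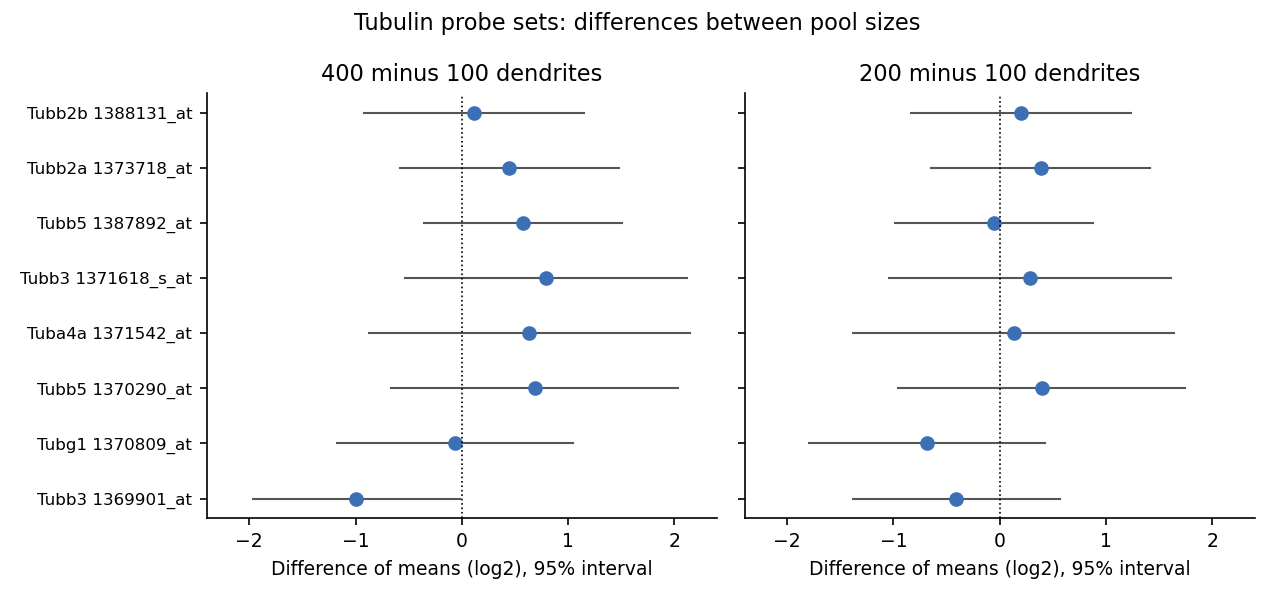
Difference of mean log2 signal between pool sizes for each tubulin probe set (points), with 95% intervals from limma (lines), for 400 minus 100 dendrites (left) and 200 minus 100 dendrites (right). The interval of Tubb3 1369901_at in the left panel, -1.97 to -0.018, is the only one that leaves out 0, and its adjusted p was 1.0.

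For 200 against 100 dendrites 5 of 8 differences were above 0, with a median of 0.17, and the largest in size was -0.68 for Tubg1 (95% interval -1.79 to 0.42). For 400 against 200 dendrites the largest was 0.63 for Tubb5 1387892_at (95% interval -0.30 to 1.56), with every interval of the 8 including 0. The contrasts share arrays. No tubulin probe set had all 3 arrays of a larger pool size above, or all 3 below, the 3 arrays of a smaller pool size, which was so for 0 of 8 in each of the 6 counts. Over all probe sets the shares above and below were 3.21% and 2.96% for 400 against 100 dendrites, 3.85% and 3.56% for 200 against 100, and 3.3% and 3.27% for 400 against 200. The shared alpha-tubulin probe set differed by -0.41 between 400 and 100 dendrites (95% interval -1.69 to 0.88).

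Tubulin signals also differed between arrays of the same pool size. Replicate 2 of the 400-dendrite pools held the highest value of 5 of 8 tubulin probe sets (Tubb2a, Tubb2b, Tubb3 1371618_s_at and both of Tubb5), whereas 9.29% of all probe sets were highest there. The mean deviation of the 6 tubulin genes (medians of their probe sets) from their own means was 0.90 on that array and -0.37 to 0.14 on the others. Replicate 3 of the same pool size held the lowest value of 3 of 8 (Tubb2b and both of Tubb3), against 8.27% of all probe sets. Both arrays were picked out after their values were seen.

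**Figure D3:**
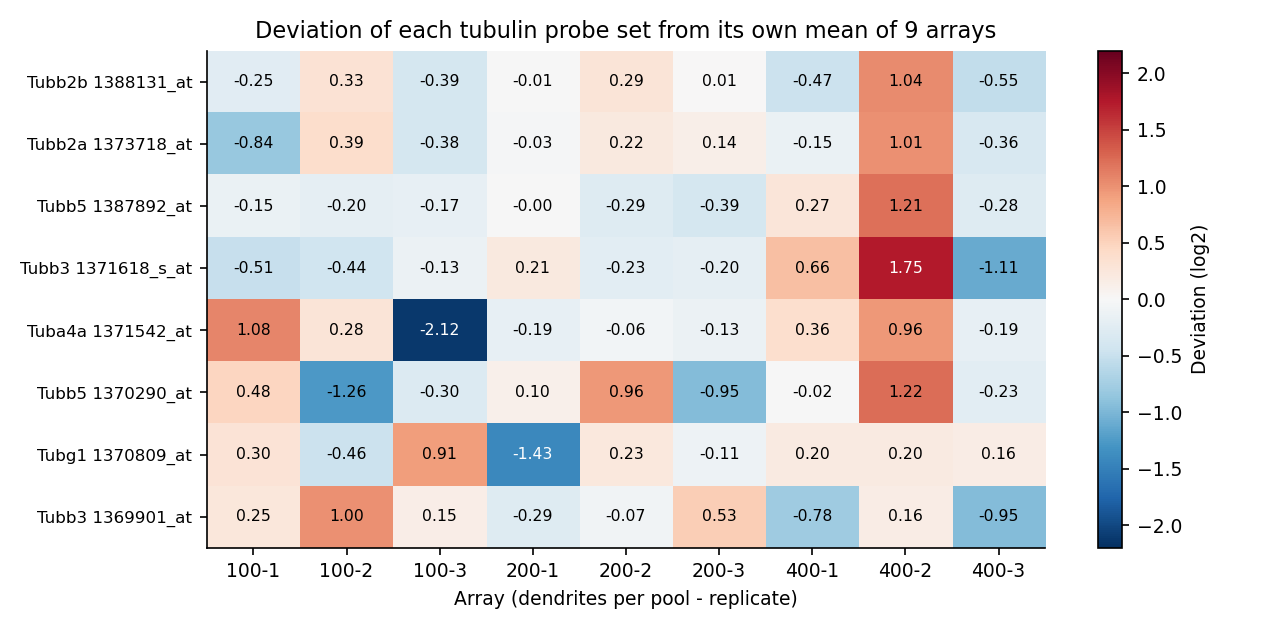
Deviation (log2) of each tubulin probe set from its own mean over the 9 arrays, with arrays named by dendrites per pool and replicate, red above and blue below the mean. Column 400-2 is red for all 8 probe sets, and Tubg1 and Tubb3 1369901_at deviate least there.

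Some other measures of replicate 2 of the 400-dendrite pools also lay at an end of the range. The signal of beta-actin at its 3′ end exceeded that at its 5′ end by 2.41 log2 units there and by -0.43 to 1.63 on the others, while the same difference for GAPDH (2.42) was within the range of the others (0.84 to 2.99). The mean signal of 8 fibroblast markers was 8.83 there, against 6.63 to 7.55 on the other arrays. By pool size this mean ran from 6.63 to 7.55 for 100, 7.02 to 7.43 for 200 and 6.82 to 8.83 for 400 dendrites. Of these markers Col3a1, Dcn, Pdgfrb and Acta2 were highest on other arrays, and Col1a1, Col1a2, Lum and Fn1 on replicate 2 of the 400-dendrite pools. The mean of pyramidal neuron markers was highest there too, at 8.72 against 8.35 to 8.62, that of microglial markers was lowest, at 6.90 against 7.05 to 7.34, and that of astrocyte markers, at 8.47, was within the range of the others (7.20 to 8.66). The mean r of that array with the other arrays was 0.82, within their range (0.75 to 0.84). So was its 3′ minus 5′ difference for hexokinase (0.78 against -1.91 to 1.15). Its means of oligodendrocyte lineage markers (7.69 against 7.35 to 7.99), endothelial markers (8.73 against 8.42 to 8.89) and nuclear-retained RNAs (9.59 against 9.10 to 10.57) were within the range too. The part of these measures in the tubulin signals was not tested.

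Over the 9 arrays the highest correlations were between beta-tubulins, and those of gamma-tubulin lay on both sides of 0. Tubb2a and Tubb2b had a Pearson r of 0.88 and a Spearman rho of 0.85, and r was 0.91 for deviations from the mean of each pool size. Tubb3 1371618_s_at and Tubb5 1387892_at had r = 0.91 and rho = 0.65, and 0.95 within pool sizes. The other 3 probe set pairs of these genes had r of 0.51, -0.09 and -0.34, the last being the lowest of all pairs. The 28 pairs of tubulin probe sets had a median r of 0.30 and ran from -0.34 to 0.91, with 21 above 0, and the 7 pairs of Tubg1 ran from -0.26 to 0.20. These values describe 9 arrays whose probe sets share the same amplified RNA and the same scan, and no test was made of them.

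These correlations were lower without the array on which most tubulins were highest. Without it, 13 of 28 pairs were above 0 and the median r was -0.04. The r of Tubb2a with Tubb2b was then 0.74, and that of Tubb3 1371618_s_at with Tubb5 1387892_at was also 0.74. When the 2 arrays farthest from the median of Tubb2b, or of the Tubb3 probe set, were left out, r was 0.74 and 0.82. With all 9 arrays and 31041 other probe sets, Tubb2b ranked as number 33 in correlation with Tubb2a, and Tubb2a as number 31 with Tubb2b. Tubb5 1387892_at ranked as number 8 with Tubb3 1371618_s_at, and the latter as number 22 with the former.

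**Figure D4:**
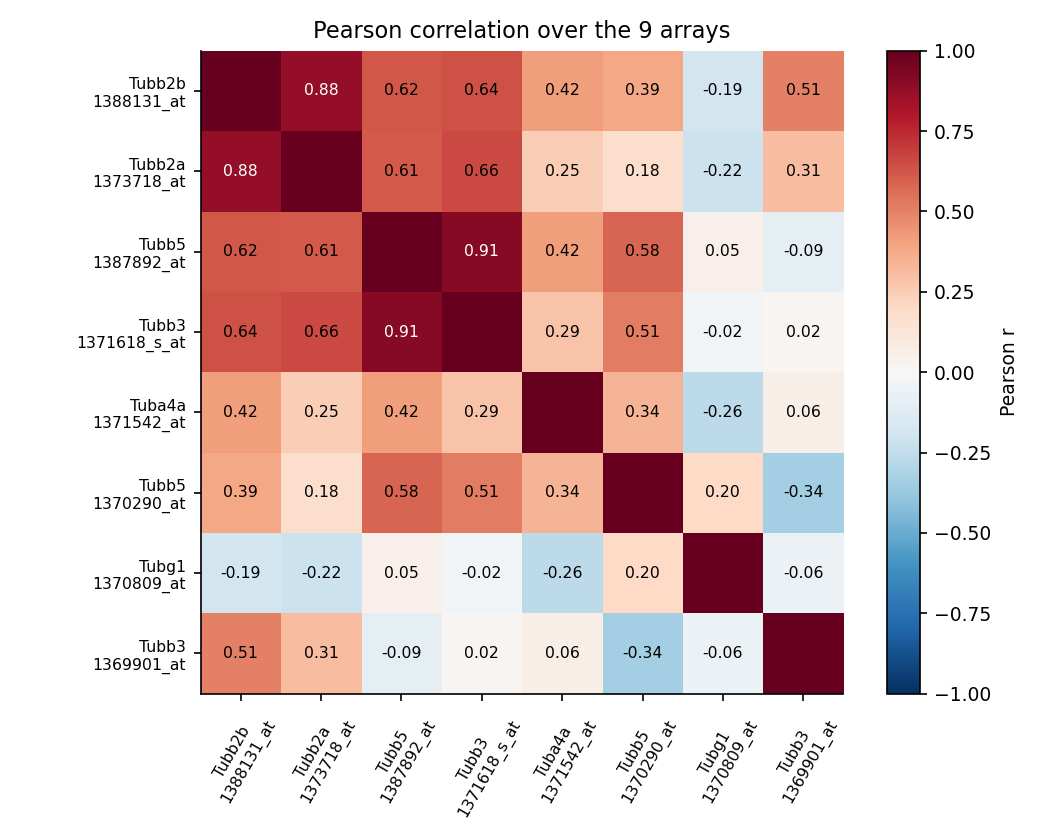
Pearson correlation over the 9 arrays for each pair of tubulin probe sets, from blue (-1) to red (1). The pairs Tubb2a with Tubb2b (0.88) and Tubb3 1371618_s_at with Tubb5 1387892_at (0.91) stand highest, and the row of Tubg1 lies between -0.26 and 0.20.

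The genes whose log2 signal was most like the mean of the 6 tubulin genes over the 9 arrays, among 14211 others, were Mdfi (r = 0.95), Hnrnpdl (0.94), Rhoa (0.92), Ifitm3 (0.92) and Ets1 (0.90). Mdfi inhibits myogenic transcription factors, Hnrnpdl binds RNA, Rhoa is a small GTPase of the actin cytoskeleton, Ifitm3 is an interferon-induced membrane protein and Ets1 is a transcription factor. In the order given, the median percentiles of these 5 genes were 36.7, 36.1, 10.8, 12.9 and 8.87, all below the middle of all genes. They were picked as the highest of 14211 correlations over 9 arrays, and no test was made of them. All 5 were highest on the same array as the tubulins, where Ifitm3 read 9.66 against a median of 6.11. Without that array their r fell to between 0.60 and 0.86.

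Of 13 other tubulin genes 6 were measured, and the beta-tubulins Tubb4b and Tubb4a had the highest percentiles of these, while Tubb6 and Tubb1 had the lowest. Tubb4b, a beta-tubulin of most tissues, had 11.34 ± 0.59 (SD, n = 9) and a median percentile of 97.6, and Tubb4a, a beta-tubulin of brain, had 10.29 ± 0.53 and 94.9. The Tubb4a value is the median of probe sets with means of 10.48, 10.39 and 9.02. The last of these lay at the 80.4th percentile among probe sets. Tubb4b was in the top 5% of genes on 9 of 9 arrays, and its highest value, 12.69, was also on replicate 2 of the 400-dendrite pools. The other 4 were Tuba8, a minor alpha-tubulin, at 7.89 ± 0.88 (66.3rd percentile), Tube1, the epsilon-tubulin of centrioles, at 7.60 ± 0.60 (49.3rd), Tubb6 at 7.66 ± 0.47 (46.6th) and Tubb1, the beta-tubulin of platelets, at 7.21 ± 0.61 (38.7th). Their median percentile was 57.8 over the 6 genes. The differences of 400 from 100 dendrites were above 0 in 5 of 6, against 51.5% of all genes, and 0 of 6 passed limma's test in any contrast. Tubb1, like Tubb4b, was highest on replicate 2 of the 400-dendrite pools, and the count was not repeated without that array. The largest difference was 0.82 for Tubb4b (95% interval -0.14 to 1.78), which read 11.70, 12.69 and 11.04 on the arrays of 400 dendrites.

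The genes that act on tubulin differed in where their signals lay, and none of them passed limma's test between pool sizes. Among 20 of 21 listed genes for tubulin folding (prefoldin, the cytosolic chaperonin and the tubulin cofactors), the median percentile was 65.9. With genes ordered by their median rank over the arrays, 3 were in the top 5%, Cct3 at its edge with a median percentile of 94.9. Tbca, the cofactor that receives folded beta-tubulin, was highest at 11.79 ± 0.64 (SD, n = 9), and the chaperonin subunits Cct4 and Cct3, named after their values were seen, followed at 11.16 ± 1.13 and 10.44 ± 0.58. The prefoldin subunit Pfdn5 was lowest at 5.75 ± 0.34. Another prefoldin subunit, Pfdn4, had the smallest p for 400 against 100 dendrites, with a difference of -0.91 (limma, unadjusted p = 0.093).

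The partners of gamma-tubulin lay lower, and their median was below Tubg1 itself. For the gamma-tubulin ring complex and augmin, which branches new microtubules from old ones, 16 of 19 genes were measured with a median percentile of 40.7, and 0 were in the top 5%. The augmin subunit Haus5 was highest at 8.78 ± 0.62 (SD, n = 9) and Nedd1, which docks the ring complex, was lowest at 5.05 ± 0.19. Tubgcp2, a core subunit of the ring, had the smallest p for 400 against 100 dendrites, with a difference of 0.50 (limma, unadjusted p = 0.212).

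Genes for enzymes that modify tubulin, such as those that remove or add tyrosine, glutamate or acetyl groups, were measured for 20 of 31, with a median percentile of 45.3 and 6 above the middle. Vash1, which removes the terminal tyrosine of alpha-tubulin, was highest at 9.84 ± 0.52 (SD, n = 9). Its binding partner Svbp was lowest at 6.12 ± 0.56 and also had the smallest p for 400 against 100 dendrites, with a difference of 0.68 (limma, unadjusted p = 0.071).

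Genes for microtubule severing and end binding were measured for 19 of 26, with a median percentile of 66.0 and 14 above the middle. Mapre2, a protein of the end-binding family, was highest at 11.17 ± 0.32 (SD, n = 9), and the linker Clip1 was lowest at 5.96 ± 0.22. Camsap1, which binds minus ends, had the smallest p for 400 against 100 dendrites, with a difference of 0.63 (limma, unadjusted p = 0.157). For tubulin mRNA autoregulation 11 of 12 genes were measured, with a median percentile of 36.6. There the deadenylase subunits Cnot8 (8.92 ± 0.52) and Cnot2 (5.90 ± 0.34) were highest and lowest, and the scaffold Cnot1 had the smallest p, with a difference of -0.66 (limma, unadjusted p = 0.227).

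**Figure D5:**
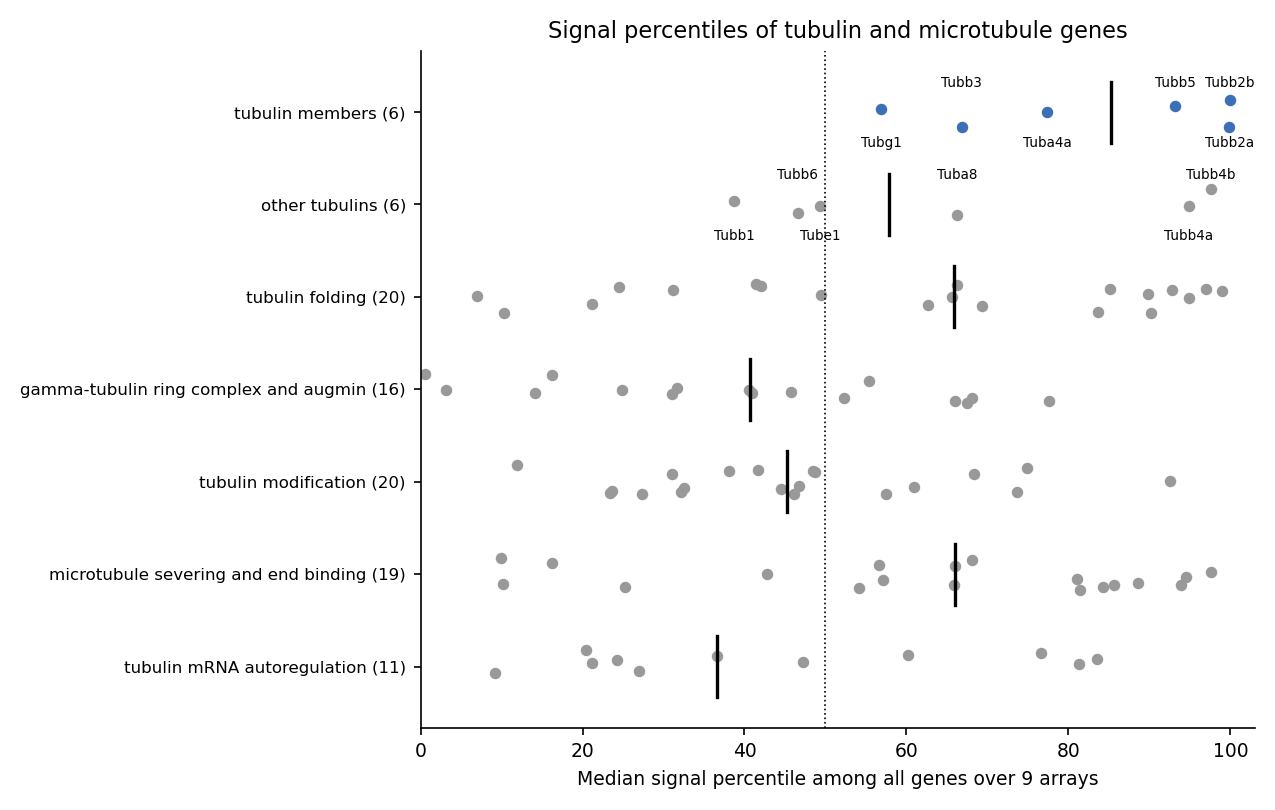
Median signal percentile among all genes for the listed tubulins (blue) and for the other tubulin and microtubule genes (grey), with the number measured in brackets, a bar for the median of each list and a dotted line at 50. The 6 listed tubulins all lie above 50 with a median of 85.3, and the medians of the other lists lie between 36.6 and 66.0.

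In the 5 lists of genes that act on tubulin, differences of 400 from 100 dendrites were above 0 in 10 of 20 folding, 11 of 16 ring complex and augmin, 12 of 20 modification, 12 of 19 severing and end binding and 4 of 11 autoregulation genes, and their medians ran from -0.06 to 0.16. For the 6 tubulin genes 4 were above 0 with a median of 0.28, and of all genes 51.5% were above 0 with a median of 0.02. Without replicate 2 of the 400-dendrite pools 3 of the 6 were above 0 and their median was -0.02, against 0.04 over all genes.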

How the data were processed

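Per the labels and the methods, RNA of each dendrite pool was amplified in 2 rounds and once more with a commercial kit, labelled with biotin and hybridised to an Affymetrix rat expression array. The authors deposited log2 probe set signals, which the submitters' processing notes credit to RMA 2.0; RMA subtracts background, quantile-normalizes arrays and summarises probes. The 9 arrays had medians of 7.46 to 7.53. The median centring and percentile scaling of the methods were not in these values. Files give no depth, and the number of arrays limits the precision.

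After 57 control probe sets were removed, 31042 remained, without further filtering. Names came from the platform annotation, updated through Entrez IDs for 20758 probe sets. Where several probe sets named the same gene alone, their median stood for the gene. Differences were tested with limma 3.58.1 (R 4.3.3) in 1 model of all 9 arrays, two-sided, with Benjamini-Hochberg adjustment over all probe sets or genes at 0.05. The fit was tested on simulated data. Python 3.11.15, numpy 2.4.6 and pandas 2.3.3 served for the rest, and matplotlib 3.10.9 drew the figures. Named genes were all listed and measured tubulins, the highest, lowest and smallest-p member of each pathway list, and the 5 genes most correlated with the tubulin mean. The tubulins, lists and tests were chosen with earlier results of these data known. Alternatives were quantile normalization, the methods' scaling, the upper part by signal, other variance settings, array weights, the methods' t-test, a replicate block, the highest probe set per gene and leaving out each array. Promoter sequences came from RefSeq for 8 of 8 genes. Mouse arrays were not used here.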

Additional observations from a re-analysis of the deposited data

How the results depend on the processing

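The count of tubulin probe sets and genes past the threshold was 0 in each contrast under all alternatives run. The labels do not say whether replicate numbers pair the arrays, and no pairing was visible in the correlation of deviations. It was -0.204 to 0.0873 for arrays of the same number and -0.189 to 0.219 for others. Such correlations cannot tell whether cultures were shared. With the replicate block 0 tubulin probe sets were called in each contrast, and 1 had an unadjusted limma p under 0.05 for 400 against 100 dendrites. That count was 0 in 8 of 16 alternatives: the upper part by signal, variance with trend and robust fitting, the methods' t-test, and each fit without replicate 1 or 2 of 100, replicate 1 or 2 of 200, or replicate 1 of 400 dendrites. The methods' t-test called 0 of all probe sets in each contrast, with 800, 1053 and 872 at an unadjusted p under 0.05. The median percentile of the tubulin genes was 70.8 when only the upper part of genes by signal was ranked, a change made by the removal of the lower genes from the ranking, and 84.2 to 86.9 otherwise.

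Differences of 400 from 100 dendrites changed sign for 4 of the 6 genes, none of them called. Tubb2b turned to -0.078 with array weights, and Tubb3 turned to 0.79 when its probe set of highest mean stood for the gene. Leaving out single arrays gave Tuba4a values from -0.299 to 1.301, Tubb2b -0.40 to 0.39, Tubb3 -0.60 to 0.39 and Tubg1 -0.42 to 0.27. Tuba4a was -0.30, Tubb2b -0.03 and Tubg1 0.27 without replicate 3 of the 100-dendrite pools, Tubb2b was -0.40 without the highest array, replicate 2 of the 400-dendrite pools, and Tubb3 was 0.013 and 0.39 on leaving out replicate 2 of 100 dendrites or replicate 3 of 400 dendrites. The cause was not tested. Tubb2a and Tubb5 stayed above 0, from 0.03 to 0.94. Without single arrays, the correlation of Tubb2a with Tubb2b ran from 0.74 to 0.97 and that of the brighter Tubb3 and Tubb5 probe sets from 0.74 to 0.96; these leave-outs were chosen after seeing the data.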
